A study of Mus musculus with 9 samples.

Results

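Hmgcs1, Mvd, Idi1, Fdps, Fdft1, Sqle, Cyp51 and Srebf2 are 8 genes of the cholesterol supply of the cell. They were chosen by name, with earlier results of these data known, and all 8 were found among the 22396 genes with counts. Of these, 7 encode enzymes of cholesterol synthesis, and Srebf2 encodes the transcription factor SREBP2. None of the 8 encodes a receptor or carrier that brings cholesterol into the cell, so genes of uptake are given from a separate list. The counts are of RNA recovered with FLAG-tagged RIG-I, a sensor of RNA in the cytoplasm, from B16F10, a mouse melanoma cell line. All cells stably expressed FLAG-RIG-I and 1 shRNA, which was a control (shCtr) or was directed against OSGEP (shOSGEP#1 or shOSGEP#2). OSGEP is the catalytic subunit of KEOPS, the complex that makes the t6A modification next to the anticodon of tRNAs. Ribosomal RNA was depleted before sequencing, and each group had 3 libraries from independent experiments, 9 in all. A gene's value is its share of the counts assigned to genes in the RNA recovered with RIG-I. It is not a share of all RNA bound to RIG-I. RNA of whole cells was not analysed here, so a change in the amount of an mRNA and a change in its recovery with RIG-I cannot be told apart.

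Cholesterol is made from acetyl-CoA through mevalonate, isoprenoid diphosphates, squalene and a series of sterols. When sterol is plentiful, SCAP and the INSIG proteins hold SREBP2 in the endoplasmic reticulum. When sterol falls, SREBP2 moves to the Golgi, is cut by the proteases encoded by Mbtps1 and Mbtps2, and raises transcription of most genes of the route. Farnesyl diphosphate, in the middle of the route, also feeds protein prenylation, dolichol and ubiquinone.

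The libraries differed in depth. Of the 9, 8 had 14914731 to 50224299 counts, and shOSGEP#2 replicate 2 had 568995. Values are given as CPM, the count scaled to the total counts of its library. In shOSGEP#2 replicate 2, the floor of 3 counts was 5.27 CPM, against at most 0.201 CPM elsewhere. This library was kept out of the comparisons and is described apart, so that shOSGEP#2 has 2 libraries in them. Differences were tested with edgeR's quasi-likelihood test on the other 8 libraries, with p-values adjusted by Benjamini-Hochberg over all 12744 genes tested, and a gene was called at an adjusted p under 0.01. All 8 cholesterol genes passed the filter on low counts. In shOSGEP#1 against shCtr, 5.00% of the genes tested were called higher and 4.67% lower. In shOSGEP#2 against shCtr these shares were 5.66% and 3.89%, and in shOSGEP#2 against shOSGEP#1 they were 6.23% and 4.56%. Both shOSGEP groups were compared with the same shCtr libraries.

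Osgep, the target of the shRNAs, was measured at 19.1, 19.9 and 15.5 CPM in shCtr replicates 1, 2 and 3. It was at 3.76, 1.15 and 1.53 CPM in shOSGEP#1 and at 0.0786 and 2.88 CPM in shOSGEP#2 replicates 1 and 3. Every shOSGEP library lay below every shCtr library, as the labels say. The log2 fold change was −3.10 for shOSGEP#1 (SE 0.734, edgeR adjusted p = 0.0128) and −3.84 for shOSGEP#2 (SE 0.934, edgeR adjusted p = 0.0150), which is short of the threshold for each. The size in shOSGEP#2 rests on single libraries: it was −7.86 without replicate 3 (called) and −2.78 without replicate 1 (adjusted p = 0.0136), where the lone library left is assumed to vary like the other groups. Osgep was called in 4 of 16 alternatives for each shRNA. For shOSGEP#1 these were the fits with no filter, with only the groups compared and without either shOSGEP#2 library. For shOSGEP#2 they included no filter and DESeq2 (adjusted p = 0.00947).

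The melanoma identity of the cells was checked with 8 genes of the melanocyte lineage, which summed to 8880, 8065 and 10702 CPM in shCtr. The sum was 10458, 13562 and 12386 CPM in shOSGEP#1 and 3717 and 4611 CPM in shOSGEP#2, with Tyrp1 highest by group mean in shCtr and shOSGEP#2 and Gpnmb in shOSGEP#1. In shOSGEP#2, 6 of these 8 genes were called lower than in shCtr (Pmel, Mlana, Tyr, Dct, Sox10 and Gpnmb), and in shOSGEP#1 Tyr was called lower and Gpnmb higher. In shOSGEP#2 the call of Mlana was lost without replicate 3 (adjusted p = 0.0109), that of Sox10 without replicate 1 (adjusted p = 0.0101) and that of Gpnmb without either or without shCtr replicate 1 (adjusted p up to 0.0165). Markers of other cells were low. The 5 fibroblast genes summed to between 3.54 and 6.27 CPM in the shCtr and shOSGEP#1 libraries and to 16.4 and 33.8 CPM in shOSGEP#2, led by Col1a2, with Lum at 0. Immune genes reached at most 3.85 CPM in sum (led by Lyz2 in shCtr and shOSGEP#1 and by Cd3e in shOSGEP#2, with Itgam at 0), endothelial genes 2.18 CPM (led by Pecam1), liver genes 0.502 CPM (led by Ttr in shCtr, with Alb and Serpina1a at 0) and keratinocyte genes 0.116 CPM (Krt14, with Krt5, Krt10 and Dsg3 at 0). The part of the lower melanocyte markers in the values of shOSGEP#2 below was not tested.

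All 8 genes were detected in every deep library. Together the 8 genes made up 739, 796 and 929.7 CPM in shCtr, 1102, 1308 and 749 CPM in shOSGEP#1 and 666 and 842 CPM in shOSGEP#2 replicates 1 and 3. The groups overlapped. Among shOSGEP#1 libraries, replicate 3 was low, and it also had the largest share of mitochondrially encoded counts (2.96%, against 0.147% to 0.445% in the other deep libraries). The part of this difference in the values of that library was not tested.

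Levels can be compared between genes after division by transcript length. In shCtr, Fdps was the most abundant at 88.4 ± 5.49 CPM per kilobase (SD, n = 3). It was followed by Srebf2 (46.3 ± 1.75), Hmgcs1 (37.6 ± 9.04) and Idi1 (37.3 ± 12.5), then by Cyp51 (20.3 ± 3.89), Mvd (18.6 ± 2.11), Sqle (18.0 ± 2.03) and Fdft1 (16.01 ± 0.577), all in CPM per kilobase. Libraries of Fdps lay above those of Srebf2, and those of Idi1 above those of Cyp51, while all other neighbours in this order overlapped. The order was the same with the median length of each gene's coding transcripts. Among 12619 tested genes with a coding transcript in the annotation, the level per kilobase in shCtr stood at percentiles from 61.6 (Fdft1) to 93.4 (Fdps). In shOSGEP#1, Cyp51 (39.4 CPM per kilobase) and Sqle (37.5) stood above Idi1 (33.3), all neighbours overlapped, and Mvd was last (14.4). In shOSGEP#2, Srebf2 (62.3 CPM per kilobase) stood above Fdps (50.0), with no overlap of the 2 libraries, and Fdft1 was last, as in shCtr (7.24).

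Srebf2, the regulator, had 240.6, 225 and 239.7 CPM in shCtr, 328, 443 and 199.7 CPM in shOSGEP#1 and 302 and 330.1 CPM in shOSGEP#2. The shCtr libraries lay close together, while shOSGEP#1 replicates 1 and 2 were above them and replicate 3 below. The shOSGEP#2 libraries were above all shCtr libraries. The log2 fold change was 0.45 in shOSGEP#1 (SE 0.234, edgeR adjusted p = 0.199) and 0.33 in shOSGEP#2 (SE 0.259, edgeR adjusted p = 0.385), so that it was called for neither.

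Hmgcs1 encodes the cytoplasmic synthase of HMG-CoA, an early step of the route. It had 101, 126 and 164 CPM in shCtr, 172, 165 and 109.6 CPM in shOSGEP#1 and 109 and 138 CPM in shOSGEP#2. All 3 groups overlapped, with log2 fold changes of 0.18 in shOSGEP#1 and −0.18 in shOSGEP#2. Mvd, which decarboxylates mevalonate diphosphate to isopentenyl diphosphate, was at 29.1, 32.3 and 36.5 CPM in shCtr, at 32.4, 27.0 and 16.5 CPM in shOSGEP#1 and at 14.5 and 23.3 CPM in shOSGEP#2. In shOSGEP#2 both libraries were below shCtr (log2 fold change −0.89, SE 0.296, edgeR adjusted p = 0.0529). Idi1, the isomerase that makes dimethylallyl diphosphate, had 80.4, 104 and 155 CPM in shCtr, 111, 118 and 73.1 CPM in shOSGEP#1 and 45.0 and 73.5 CPM in shOSGEP#2. The shCtr libraries were spread widely, and both shOSGEP#2 libraries were below them (log2 fold change −1.04, SE 0.310, edgeR adjusted p = 0.0358). Fdps, which joins these units into farnesyl diphosphate, had 114, 129 and 123 CPM in shCtr, 154, 135 and 68.1 CPM in shOSGEP#1 and 66.1 and 72.0 CPM in shOSGEP#2. In shOSGEP#2 and in shOSGEP#1 replicate 3 it was below all shCtr libraries, and in the other shOSGEP#1 libraries above them. Its log2 fold change was −0.92 in shOSGEP#2 (SE 0.279, edgeR adjusted p = 0.0379) while shOSGEP#1 stood at −0.05 (SE 0.241, adjusted p = 0.904). None of these 4 enzymes was called by edgeR for either shRNA in this fit, while DESeq2 called Idi1 and Fdps in shOSGEP#2.

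Fdft1, the squalene synthase, takes farnesyl diphosphate into the sterol branch. It was at 61.3, 57.0 and 59.4 CPM in shCtr, at 89.3, 93.9 and 47.7 CPM in shOSGEP#1 and at 28.6 and 24.9 CPM in shOSGEP#2. Both shOSGEP#2 libraries were below every other deep library, and shOSGEP#1 had libraries on either side of shCtr. Fdft1 fell by 1.23 on the log2 scale in shOSGEP#2 against shCtr (SE 0.266, edgeR adjusted p = 0.00821), the 1 gene of the 8 called in that comparison. In shOSGEP#1 the log2 fold change was 0.37 (SE 0.226, edgeR adjusted p = 0.281). The difference between the shRNAs was itself called, at −1.60 (SE 0.270, edgeR adjusted p = 0.00189). The call against shCtr was narrow: it was lost without any 1 of 7 libraries (all of the fit except shOSGEP#1 replicate 3), with adjusted p from 0.0103 to 0.0640 and log2 fold changes from −1.38 to −1.11, and with library totals in place of TMM (adjusted p = 0.0110). The call between the shRNAs was lost without shOSGEP#2 replicate 3 (log2 fold change −1.48, adjusted p = 0.0221). Without either shOSGEP#2 library the lone library left is assumed to vary like the other groups.

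Sqle, the squalene epoxidase, and Cyp51, the sterol 14-demethylase, act after squalene. Sqle had 44.5, 49.0 and 55.7 CPM in shCtr, 94.2, 127 and 88.8 CPM in shOSGEP#1 and 47.1 and 82.9 CPM in shOSGEP#2. All shOSGEP#1 libraries, replicate 3 included, were above all shCtr and shOSGEP#2 libraries. Sqle rose by a log2 fold change of 1.04 in shOSGEP#1 (SE 0.215, edgeR adjusted p = 0.00661), the 1 gene of the 8 called in that comparison, and was at 0.28 in shOSGEP#2 (SE 0.238, edgeR adjusted p = 0.429). The call was lost without any 1 of the 6 shCtr and shOSGEP#1 libraries, with adjusted p from 0.0104 to 0.0348 and log2 fold changes from 0.87 to 1.14. The difference between the shRNAs was −0.76 (SE 0.245, edgeR adjusted p = 0.0436) and was not called. Cyp51 had 67.9, 74.5 and 97.1 CPM in shCtr, 121, 198 and 146 CPM in shOSGEP#1 and 52.8 and 97.6 CPM in shOSGEP#2. Here too every shOSGEP#1 library was above every other deep library, with a log2 fold change of 0.94 (SE 0.246, edgeR adjusted p = 0.0197). It is just short of the threshold, and was called in 5 of 17 alternatives, DESeq2 among them (adjusted p = 0.00140). In shOSGEP#2 the value was −0.19, and between the shRNAs it was −1.14 (SE 0.284, edgeR adjusted p = 0.0156), which was called in 4 of 17 alternatives, DESeq2 among them (adjusted p = 0.000702).

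**Figure D1:**
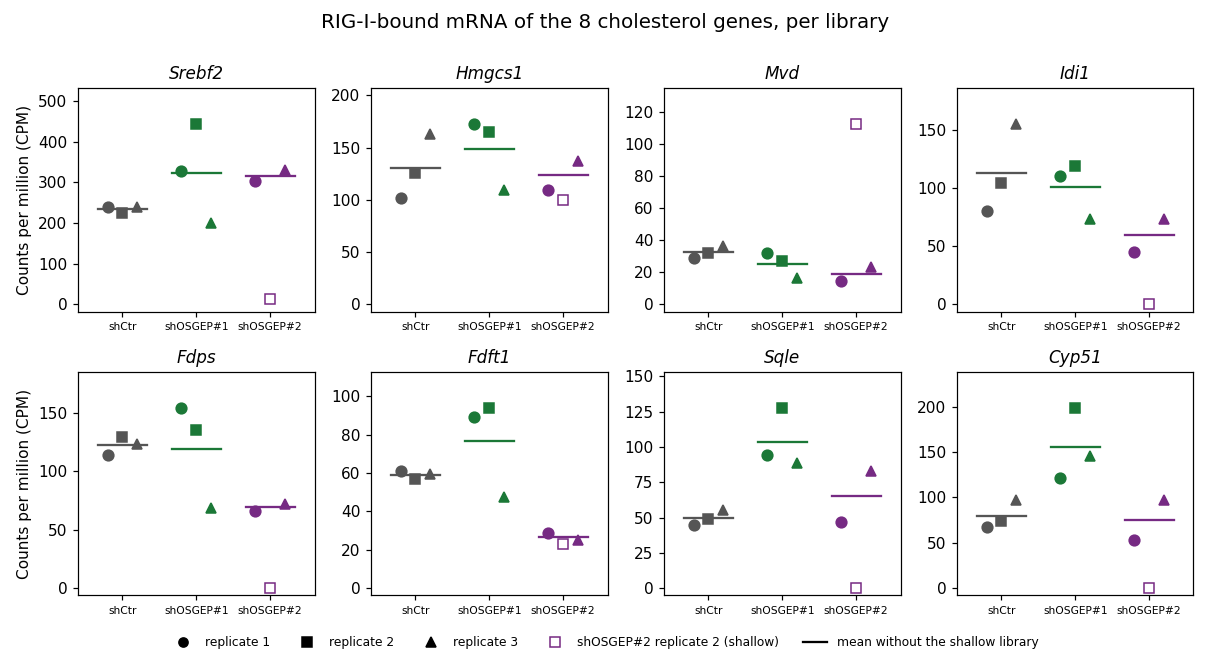
CPM of the 8 genes in each of the 9 libraries, 1 panel per gene, with the group on the horizontal axis and CPM on a linear vertical axis. Filled symbols are the 8 deep libraries (shape gives the replicate), horizontal lines are the group means of these, and the open square is shOSGEP#2 replicate 2. Sqle and Cyp51 lie higher in all shOSGEP#1 libraries than in shCtr, while Mvd, Idi1, Fdps and Fdft1 lie lower in both deep shOSGEP#2 libraries.

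Of the 8 genes, 1 was called higher and 0 lower in shOSGEP#1 (all genes 5.00% and 4.67%). In shOSGEP#2, 0 were called higher and 1 lower (all genes 5.66% and 3.89%). The median log2 fold change of the 8 was 0.27 in shOSGEP#1 (all genes 0.00), −0.54 in shOSGEP#2 (all genes −0.06) and −0.81 in shOSGEP#2 against shOSGEP#1 (all genes −0.04). In that last comparison all 8 values were negative, and 1 gene was called lower (all genes 4.56%). The median in shOSGEP#1 lies between Hmgcs1 and Fdft1. Over 17 alternatives these ran from 0.020 to 0.38 and from 0.19 to 0.62. By the rule that the groups do not overlap, 2 of the 8 were higher and 0 lower in shOSGEP#1 (23.1% and 22.2% of all genes). In shOSGEP#2 1 was higher and 4 were lower than shCtr (28.7% and 23.6% of all genes), and against shOSGEP#1 0 were higher and 3 lower (27.1% and 22.5%).

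The remaining 15 genes of synthesis were all tested. Shares of all genes called higher and lower, in the order below, were 5.00% and 4.67%, 5.66% and 3.89%, and 6.23% and 4.56%. In shOSGEP#1, 4 were called higher and 0 lower (median log2 fold change 0.67), in shOSGEP#2 0 higher and 1 lower (median −0.33), and in shOSGEP#2 against shOSGEP#1 0 higher and 6 lower (median −0.67). Msmo1, the sterol oxidase that acts after Cyp51, had 32.7, 31.9 and 51.2 CPM in shCtr, 70.2, 124 and 109 CPM in shOSGEP#1 and 23.6 and 30.9 CPM in shOSGEP#2. It was higher in every shOSGEP#1 library and lower in both shOSGEP#2 libraries than in any shCtr library, and rose by a log2 fold change of 1.38 in shOSGEP#1 (SE 0.250, edgeR adjusted p = 0.00349). Sc5d, the sterol desaturase, and Ebp, the sterol isomerase, rose in shOSGEP#1 by log2 fold changes of 1.12 (SE 0.201, edgeR adjusted p = 0.00322) and 0.95 (SE 0.180, edgeR adjusted p = 0.00439). The other call was Erg28, a scaffold of the sterol enzymes (0.75, edgeR adjusted p = 0.00728), which is named here after its values were seen. Each of these 4 calls was lost without shCtr replicate 1, shCtr replicate 2, shOSGEP#1 replicate 2 or shOSGEP#1 replicate 3, with adjusted p up to 0.0236 for Msmo1, 0.0237 for Sc5d, 0.0330 for Ebp and 0.0466 for Erg28. Nsdhl, a sterol dehydrogenase, fell by 1.40 on the log2 scale in shOSGEP#2 (SE 0.292, edgeR adjusted p = 0.00700), a call lost without any 1 of 5 libraries (shCtr replicates 1 and 3, shOSGEP#1 replicates 1 and 2 and shOSGEP#2 replicate 3), with adjusted p up to 0.0625.

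Along the route, the 22 genes of synthesis (7 of the 8 described above and these 15) can be divided by place, a division made after their values were seen. Fdft1, which makes squalene, lies between the places and is counted in neither. Of the 8 genes that lead from acetyl-CoA to farnesyl diphosphate, 0 were called in shOSGEP#1, and 2 had positive and 6 negative log2 fold changes (median −0.14). Of the 13 genes that act after squalene, 5 were called higher in shOSGEP#1 (Sqle, Msmo1, Erg28, Ebp and Sc5d), and 12 values were positive, Lss being the exception (median 0.94). In shOSGEP#2 the 8 genes had a median of −0.67 with 0 called, and the 13 a median of −0.21 with 1 called lower. Over all genes, 5.00% were called higher in shOSGEP#1 and 3.89% lower in shOSGEP#2. The difference between the places was not tested.

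**Figure D2:**
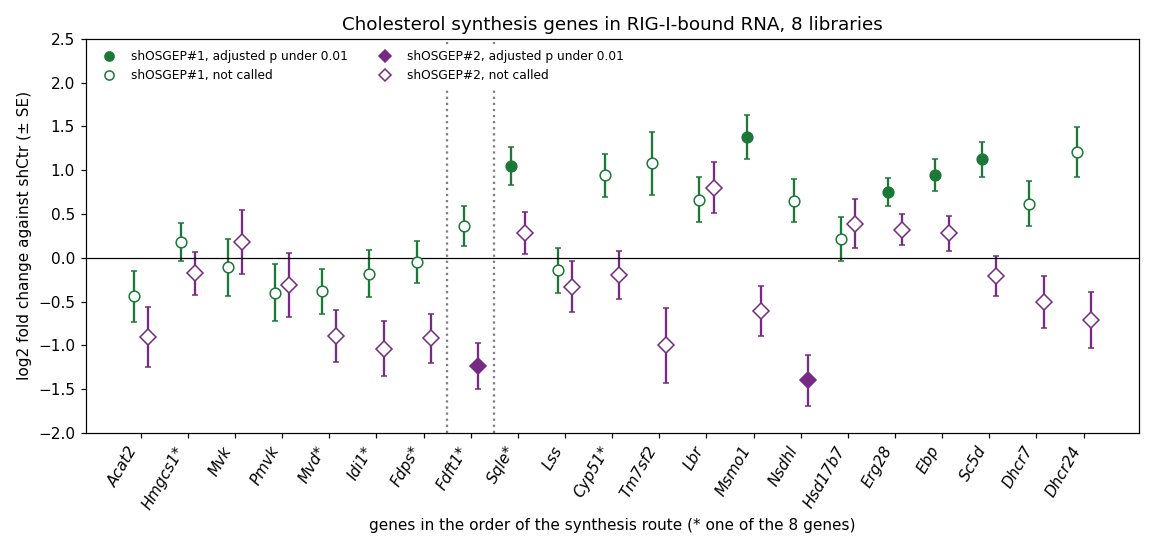
Log2 fold change against shCtr (vertical axis, edgeR, error bars are the standard error) of genes of cholesterol synthesis, from left to right in the order of the route, with an asterisk at those among the 8 genes. Not every gene counted above is drawn. Circles are shOSGEP#1 and diamonds shOSGEP#2, filled at an adjusted p under 0.01, and dotted lines enclose Fdft1. Right of Fdft1, 12 of 13 values of shOSGEP#1 are above 0, and 5 of them are called.

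Genes that process SREBP were called in different directions. Shares of all genes called higher and lower were 5.00% and 4.67% in shOSGEP#1 and 5.66% and 3.89% in shOSGEP#2. In shOSGEP#1, Mbtps2 was higher (log2 fold change 1.38, SE 0.241, edgeR adjusted p = 0.00286) and Insig2, which retains SCAP, was lower (−0.89, SE 0.174, edgeR adjusted p = 0.00495), 1 in each direction of the 6 genes tested. In shOSGEP#2, Srebf1, which encodes the SREBP1 proteins of fatty acid synthesis, was higher (1.11, SE 0.182, edgeR adjusted p = 0.00191), and 0 were lower. Srebf1 had 45.2, 42.3 and 44.6 CPM in shCtr, 68.4, 82.2 and 54.3 CPM in shOSGEP#1 and 102 and 100.04 CPM in shOSGEP#2, so that the groups followed each other without overlap. Insig1, itself a target of SREBP2, had 126, 149 and 232 CPM in shCtr, 250.3, 279 and 141 CPM in shOSGEP#1 and 90.4 and 87.9 CPM in shOSGEP#2. It was below all shCtr libraries in both shOSGEP#2 libraries, without a call against shCtr (−1.02, SE 0.312, edgeR adjusted p = 0.0393). The call of Mbtps2 was lost without any 1 of 4 libraries (shCtr replicates 1 and 2, shOSGEP#1 replicates 2 and 3, adjusted p up to 0.0189). That of Insig2 was lost without any 1 of 5 (shCtr replicates 2 and 3 and each of shOSGEP#1, adjusted p up to 0.0212), and that of Srebf1 without shCtr replicate 2 (adjusted p = 0.0128).

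Uptake and transport within the cell were covered by 10 genes, of which 8 were tested and the others were too low. Of the 8 genes tested, 2 were called higher and 1 lower in shOSGEP#1 (all genes 5.00% and 4.67%). In shOSGEP#2, 0 were called higher and 2 lower (all genes 5.66% and 3.89%). Scarb1, the receptor for high-density lipoprotein, and Mylip, a ubiquitin ligase, rose in shOSGEP#1 (log2 fold changes 1.11 and 1.21, edgeR adjusted p = 0.00611 and 0.00261). Lrp8, a receptor for apolipoprotein E and reelin, fell in both, by 1.42 on the log2 scale in shOSGEP#1 (edgeR adjusted p = 0.00997) and by 2.01 in shOSGEP#2 (edgeR adjusted p = 0.00447). Stard4, a carrier of sterol between membranes, fell by 1.58 on the log2 scale in shOSGEP#2 (SE 0.265, edgeR adjusted p = 0.00214), from 52.6, 71.0 and 80.4 CPM in shCtr to 18.3 and 30.7 CPM. In shOSGEP#1 its log2 fold change was −0.17 (edgeR adjusted p = 0.624). The call of Stard4 was lost without shOSGEP#2 replicate 1 (adjusted p = 0.0141). That of Scarb1 was lost without any shCtr library or shOSGEP#1 replicate 2 (adjusted p up to 0.0341), and that of Mylip without shCtr replicate 1 or 2 or shOSGEP#1 replicate 3 (adjusted p up to 0.0195). Lrp8 lost its call in shOSGEP#1 without shCtr replicate 1 or 2 or any shOSGEP#1 library (adjusted p up to 0.0523), and in shOSGEP#2 without shCtr replicate 1 or 2 or either shOSGEP#2 library (adjusted p up to 0.0283).

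Among 9 genes of efflux, storage and the LXR receptors, 6 were tested (Abcg1, Ch25h and Cyp27a1 were at or near 0). Shares of all genes called higher and lower were 5.00% and 4.67% in shOSGEP#1 and 5.66% and 3.89% in shOSGEP#2. In shOSGEP#1, Nceh1 and Soat1, which cleave and form cholesterol esters, rose (log2 fold changes 1.61 and 0.92, edgeR adjusted p = 0.00165 and 0.00681), and Nr1h2, which encodes LXR-beta, fell by 1.44 on the log2 scale (edgeR adjusted p = 0.000662). In shOSGEP#2, Abca1, the exporter of cholesterol to apolipoprotein A-I, rose by a log2 fold change of 1.28 (SE 0.250, edgeR adjusted p = 0.00503), and 0 were lower. It had 24.9, 23.0 and 24.9 CPM in shCtr, 11.98, 13.2 and 21.1 CPM in shOSGEP#1 and 51.8 and 74.2 CPM in shOSGEP#2, with shOSGEP#1 below and shOSGEP#2 above all shCtr libraries. Its call was lost without any shCtr library or shOSGEP#2 replicate 3 (adjusted p up to 0.0456), that of Nceh1 without shCtr replicate 1 or 2 (adjusted p up to 0.0125) and that of Soat1 without any shCtr library or shOSGEP#1 replicate 2 or 3 (adjusted p up to 0.0334). Nr1h2 stayed called without any 1 library, with adjusted p of at most 0.00489.

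Fatty acid synthesis, driven mainly by SREBP1, had 11 genes tested, with 1 higher and 1 lower in shOSGEP#1 (all genes 5.00% and 4.67%). In shOSGEP#2, 0 were higher and 2 lower (all genes 5.66% and 3.89%). In shOSGEP#1, Elovl5, an elongase, rose (1.10, edgeR adjusted p = 0.00468) and Me1, the malic enzyme, fell by 1.13 on the log2 scale (edgeR adjusted p = 0.00300). Scd2, a desaturase, had 1142, 1158 and 1288 CPM in shCtr, 1532, 2355 and 1611 CPM in shOSGEP#1 and 450.5 and 574 CPM in shOSGEP#2. It fell by 1.32 on the log2 scale in shOSGEP#2 (SE 0.213, edgeR adjusted p = 0.00173), as did Acly, the source of cytoplasmic acetyl-CoA, by 0.90 (SE 0.191, edgeR adjusted p = 0.00768). A further 14 genes belong to the branches that use isoprenoids for purposes other than sterol. Of these, Fnta, a subunit shared by some of the prenyltransferases, was the 1 gene called in shOSGEP#1 (lower, −0.72, edgeR adjusted p = 0.00386). In shOSGEP#2 the count was 0 of 14. The calls of Elovl5, Me1 and Fnta were lost without shCtr replicate 2 or shOSGEP#1 replicate 2, among others (adjusted p up to 0.0311, 0.0190 and 0.0270). That of Scd2 was lost without shOSGEP#2 replicate 1 (adjusted p = 0.0128), and that of Acly without any shCtr library, either shOSGEP#2 library or shOSGEP#1 replicate 2 (adjusted p up to 0.0439).

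Over the 60 listed genes tested outside the 8, 10 were called higher and 5 lower in shOSGEP#1 (all genes 5.00% and 4.67%). In shOSGEP#2, 2 were higher and 5 lower (all genes 5.66% and 3.89%). In shOSGEP#2 against shOSGEP#1, 1 was higher and 11 were lower (all genes 6.23% and 4.56%). Their median log2 fold changes were 0.32, −0.21 and −0.37. The counts rest on few libraries: for shOSGEP#1 the number called, genes gained included, went from 15 to 1 without shCtr replicate 2, 3 without shCtr replicate 1, 3 without shOSGEP#1 replicate 2, 8 without shOSGEP#1 replicate 3, 11 without shCtr replicate 3 and 13 without shOSGEP#1 replicate 1. For shOSGEP#2 it went from 7 to 3 without shCtr replicate 1, without shCtr replicate 2 or without shOSGEP#2 replicate 3, and 4 without shCtr replicate 3 or without shOSGEP#2 replicate 1.

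In the shallow library, shOSGEP#2 replicate 2, the 8 genes split into present and absent. Hmgcs1 had 57 counts (100.2 CPM, exact 95% Poisson interval 75.9 to 129.8), Fdft1 had 13 counts (22.8 CPM, 12.2 to 39.1) and Srebf2 had 8 (14.1 CPM, 6.07 to 27.7). Mvd had 64 counts (112.5 CPM, 86.6 to 144), above every other library. Idi1, Fdps, Sqle and Cyp51 had 0 counts, for which the upper bound of the same interval is 6.48 CPM. At the mean CPM of the other shOSGEP#2 libraries, the same depth would have given Idi1 33.7, Fdps 39.3, Sqle 37.0 and Cyp51 42.8 counts, and Srebf2 180.0 counts. Such gaps were common there: of 6483 genes with a mean CPM in the range of the 8 genes (26.5 to 288.5), 52.4% had 0 counts. Intervals and floors cover counting error only. With this library in the fit, edgeR called 0 of all genes in each comparison (before adjustment 620 genes of shOSGEP#1, 1240 of shOSGEP#2 and 1325 between the shRNAs had p under 0.05). DESeq2 on all 9 libraries called 122, 351 and 409 genes, with Fdft1 among the 351 and among the 409.

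The 8 genes varied together only in part. Over the 8 deep libraries, Pearson's r of log2 CPM between pairs of them ran from 0.01 (Mvd and Sqle) to 0.93 (Sqle and Cyp51), with a median of 0.58 over 28 pairs. Next came Mvd and Fdps, Fdps and Fdft1, and Mvd and Idi1 (each 0.89), then Idi1 and Fdps (0.83). With the mean of the other 7, r was highest for Hmgcs1 (0.85) and lowest for Srebf2 (0.40). These are descriptions of 8 libraries that share 3 groups. Among 10177 other genes with a mean of at least 5 CPM, those most like the mean standardized level of the 8 genes were Dtymk, the thymidylate kinase (Pearson's r = 0.98, Spearman's rho = 0.98), Zw10 (0.98 and 0.95), Rab1b, a GTPase of transport from the endoplasmic reticulum (0.97 and 0.98), Elovl6, a fatty acid elongase (0.95 and 0.88), and Socs7 (0.94 and 0.95). Dtymk had 51.0, 54.5 and 58.2 CPM in shCtr, 72.1, 72.0 and 47.7 CPM in shOSGEP#1 and 45.8 and 54.8 CPM in shOSGEP#2, low in shOSGEP#1 replicate 3 as several of the 8 genes were.

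The t6A modification lies on tRNAs that read codons starting with A. In the coding sequences of the 8 genes, such codons made up from 23.3% (Sqle) to 32.9% (Idi1) of all codons, with a median of 25.8%, against a median of 26.9% over 12619 tested genes. Idi1 stood at percentile 91.9 of these genes and Fdft1 at 71.1, the others between 23.4 and 61.7. Translation was not measured in these libraries.

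Promoters were looked at because several of the 8 genes are known to share regulation by SREBP2. The RefSeq promoter set (GRCm38.p6, 250 bases before to 50 after the start of a gene) held 5 of the 8 genes, which were Hmgcs1, Mvd, Idi1, Cyp51 and Srebf2. No entry under the symbols Fdps, Fdft1 or Sqle was found in the set as used here. On both strands, CCAAT, the letters bound by the factor NF-Y, was found in all 5, and in 37.4% of all 32851 promoters. TCACNCCAC, a form of the sterol regulatory element, was found in 1 of the 5 (Hmgcs1) and in 1.24% of all promoters. CACGTG, the E-box that SREBP proteins can also bind, was in 0 of the 5 and in 7.15% of all. A match describes the letters in the window and is not a measured site. The 200 bases before the start (positions −200 to −1) are shown for Hmgcs1, the 1 with both motifs, for Idi1, with the lowest log2 fold change in shOSGEP#2 among the 5, and for Cyp51, with the highest in shOSGEP#1, neither of them called. Capitals mark matches, 5′ to 3′ on the strand of the gene, with ATTGG for CCAAT on the opposite strand. They are chr13:119690151-119690350 on the plus strand, chr13:8885406-8885605 on the plus strand and chr5:4104698-4104897 on the minus strand.
Hmgcs1: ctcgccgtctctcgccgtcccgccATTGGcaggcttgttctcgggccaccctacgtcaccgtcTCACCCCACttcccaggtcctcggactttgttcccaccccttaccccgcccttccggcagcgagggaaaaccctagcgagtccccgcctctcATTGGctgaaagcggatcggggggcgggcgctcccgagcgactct
Idi1: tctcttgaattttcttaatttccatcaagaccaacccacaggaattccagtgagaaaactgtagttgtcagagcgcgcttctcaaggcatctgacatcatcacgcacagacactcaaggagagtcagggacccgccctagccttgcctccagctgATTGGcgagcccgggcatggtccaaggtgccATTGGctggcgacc
Cyp51: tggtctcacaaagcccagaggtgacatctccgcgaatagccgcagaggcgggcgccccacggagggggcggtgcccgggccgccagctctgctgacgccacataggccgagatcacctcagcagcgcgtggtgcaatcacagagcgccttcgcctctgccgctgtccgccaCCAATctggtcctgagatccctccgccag
In Hmgcs1 the match to TCACNCCAC starts at position −137, between CCAAT matches at −176 and −45. In Idi1 the CCAAT matches start at −45 and −14, and in Cyp51 the match starts at −29. The bases after the start of Hmgcs1 in this set are not in the coding transcripts of the GENCODE annotation, so the start of that gene differs between annotations.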

How the data were processed

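The counts of the authors, whole numbers from STAR and Salmon after trimming with TrimGalore, were used unchanged. CPM is the count over the total of its library, with no further normalization. Tests were made with edgeR 4.0.16 (quasi-likelihood, TMM factors, genes filtered by filterByExpr, 3 groups, 8 libraries), and every adjusted p given is edgeR's unless DESeq2 is named. The shallow library, shOSGEP#2 replicate 2, was left out because of its depth. Alternatives were DESeq2 1.42.0, all 9 libraries, other factors and filters, only the groups compared, a replicate block, another threshold and leaving out each library. Total counts ran from 568995 to 50224299. On simulated counts the median log2 fold change estimated with edgeR was close to the one put in. The share of changed genes called there is not given here.

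The 8 genes and the gene lists were chosen with earlier results of these data known. At most 4 called genes per list are named, those with the largest absolute log2 fold change against shCtr, with Insig1 named in any case and 5 genes by likeness. Transcript lengths and codons come from a GENCODE annotation of GRCm38, while the authors counted on GRCm39.

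Several limits apply. The groups hold 3, 3 and 2 libraries, so an uncalled gene is not shown to be equal. Effects of an shRNA apart from OSGEP cannot be separated from loss of OSGEP. Counts are shares, so a gene can move because others do. RNA recovered with RIG-I was measured without the whole lysate or a control pulldown among these libraries, so background recovery was not measured. These counts hold no measure of proteins, sterols or SREBP2 cleavage.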

Additional observations from a re-analysis of the deposited data

Results flagged for a closer look

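The shRNAs differed from each other in edgeR for Fdft1 (log2 fold change of shOSGEP#2 against shOSGEP#1 −1.60), Nsdhl (−2.05), Msmo1 (−1.98) and Sc5d (−1.33). The same held for Insig1 (−1.41), Stard4 (−1.40), Mylip (−1.84), Scd2 (−1.93) and Acly (−1.19), and for Abca1 in the other direction (1.94). Without any 1 library the calls of Msmo1, Mylip, Scd2 and Abca1 were kept. That of Insig1 was lost in 6 of 8 refits (adjusted p up to 0.0660), that of Stard4 in 3 (up to 0.0224), those of Sc5d and Acly in 2 each (up to 0.0254 and 0.0139), and those of Fdft1 and Nsdhl in 1 each, without shOSGEP#2 replicate 3 (0.0221 and 0.0106). Cell markers moved in the same comparison: 5 of 8 melanocyte genes were called lower (all 8 values negative, median −1.35), and 2 of 3 fibroblast genes tested were called higher, Col1a1 and Col1a2, each lost in 6 of 8 refits (adjusted p up to 0.0801 and 0.0857). The part of these markers in the differences above was not tested. Both shRNAs are directed against the same gene, and whether the difference lies in the shRNAs, the cells or the libraries was not tested.

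In shOSGEP#2 replicate 2, Mvd was at 112.5 CPM, Scarb1 at 116 CPM, Nceh1 at 96.7 CPM, Dtymk at 130.05 CPM and Rab1b at 315 CPM. The highest shCtr values of these genes were 36.5, 74.4, 34.9, 58.2 and 139 CPM. For Scarb1 and Nceh1 other shOSGEP libraries reached 204 and 117 CPM, so these values lie within the range of the deep libraries. Those of Mvd, Dtymk and Rab1b lie above all of them. Other listed genes did so too, among them Dhdds, Mvk, Coq2 and Acss2, while most listed genes had 0 counts in this library. The library had 568995 counts, and 52.4% of genes in the range of the 8 genes had 0 counts in it.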

How the results depend on the processing

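Of the 8 genes, edgeR called 1 in each comparison (shOSGEP#1, shOSGEP#2, then shOSGEP#2 against shOSGEP#1). With all 9 libraries edgeR called 0, 0 and 0, with DESeq2 2, 3 and 2, and with DESeq2 on all 9 libraries 0 in shOSGEP#1. With library totals alone the count was 0 in shOSGEP#2, with no filter 2, 2 and 2, and with only the groups compared 2 in shOSGEP#1 and 2 in shOSGEP#2. A replicate block gave 2 in shOSGEP#1 and 2 in shOSGEP#2 against shOSGEP#1, adding Cyp51 in both (adjusted p = 0.00601 and 0.00698). At an adjusted p under 0.05 the counts were 2, 3 and 4. Leaving out 1 library gave 0 to 2, 0 to 2 and 1 to 2.

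Of all genes, 1232, 1217 and 1375 were called. With all 9 libraries the counts were 0, 0 and 0, with DESeq2 2397, 2374 and 2539, with DESeq2 on all 9 libraries 122, 351 and 409, and at an adjusted p under 0.05 2797, 2674 and 2952. With only the groups compared, 737 were called in shOSGEP#2 against shOSGEP#1. Leaving out 1 library gave 318 to 1458, 518 to 1471 and 743 to 1504.

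Of the listed pathway genes, 15, 7 and 12 were called. With all 9 libraries the counts were 0, 0 and 0, with DESeq2 23, 12 and 23, with DESeq2 on all 9 libraries 1, 0 and 1, and at an adjusted p under 0.05 24, 15 and 25. With no filter, 20 were called in shOSGEP#2 against shOSGEP#1. Leaving out 1 library gave 1 to 16, 3 to 7 and 7 to 14.

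Some log2 fold changes changed sign. With all 9 libraries Mvd in shOSGEP#2 was 0.063 (DESeq2 0.10), Sqle −0.26 (DESeq2 −0.32) and Srebf2 −0.21 (DESeq2 −0.26), and Mvd in shOSGEP#2 against shOSGEP#1 was 0.45 (DESeq2 0.48). With a replicate block Srebf2 in shOSGEP#2 against shOSGEP#1 was 0.053, and leaving out 1 library gave −0.37 (without shOSGEP#1 replicate 3) to 0.18 (without shOSGEP#1 replicate 2). In shOSGEP#1, leaving out 1 library gave −0.38 to 0.12 for Idi1 (without shCtr replicates 1 and 3) and −0.28 to 0.23 for Fdps (without shOSGEP#1 replicates 1 and 3). In shOSGEP#2 it gave up to 0.026 for Hmgcs1 (without shCtr replicate 3), −0.15 to 0.61 for Sqle (without shOSGEP#2 replicates 3 and 1) and −0.66 to 0.16 for Cyp51 (likewise). The block uses a replicate number only. Deviations from the group means were correlated between libraries of different groups. By these, 6 of 8 libraries correlated best with a library of their own number, and not all pairs of the same number did. Pearson's r of such pairs was low, from −0.003 to 0.18 (mean 0.081). The deviations of the 2 shOSGEP#2 libraries are mirror images, so the count is not made of independent parts.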
